A study of Homo sapiens with 6 samples.

Results

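The noncanonical NF-kB pathway is described here through 10 genes, TRAF3, TRAF2, BIRC2, BIRC3, MAP3K14, CHUK, NFKB2, RELB, NFKB1 and RELA, out of 60612 rows of a deposited human gene table. The genes were picked by symbol. Each symbol had 1 row, so the rule of keeping the row with the highest mean FPKM among rows that share a symbol had nothing to decide. Poly(A) RNA was sequenced from 6 libraries of Hep3B, a line labelled as human hepatocellular carcinoma: 3 libraries of cells treated with 50 nM siRNA against the translation initiation factor EIF4G2 (siEIF4G2) and 3 of cells treated with 50 nM control siRNA (siNC). No source used here gives the number of siRNA sequences or the time from transfection to harvest. No label calls the replicates separate cultures. The p-values weigh the difference between groups only against the spread of these libraries within groups, and that spread may be technical.

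In resting cells the adaptor TRAF3 tethers the kinase NIK, product of MAP3K14, to TRAF2 and to the ubiquitin ligases cIAP1 and cIAP2, products of BIRC2 and BIRC3, which mark NIK for destruction. When receptors of the TNF family such as LTBR, CD40 or TNFRSF12A draw this complex to the membrane, TRAF3 is degraded and NIK accumulates. NIK then activates IKK-alpha, product of CHUK, and the p100 product of NFKB2 is processed to p52, which enters the nucleus with RELB. The canonical arm works through NFKB1 and RELA, and NFKB2, RELB and BIRC3 are themselves known targets of NF-kB. Much of this control acts on protein stability, which messenger RNA levels do not show.

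Promoter windows of TRAF3, NFKB2 and BIRC3 are printed because they hold matches to the kappa B consensus, the 10-base sequence that NF-kB dimers recognise, and because TRAF3 and NFKB2, which moved in opposite directions, both hold one. The windows run from 250 bases before to 50 after a RefSeq gene start on GRCh38.p14, plus strand. A gene can have more than 1 such start and window. Capitals mark the matches found on either strand.
TRAF3, chr14:102777199-102777498: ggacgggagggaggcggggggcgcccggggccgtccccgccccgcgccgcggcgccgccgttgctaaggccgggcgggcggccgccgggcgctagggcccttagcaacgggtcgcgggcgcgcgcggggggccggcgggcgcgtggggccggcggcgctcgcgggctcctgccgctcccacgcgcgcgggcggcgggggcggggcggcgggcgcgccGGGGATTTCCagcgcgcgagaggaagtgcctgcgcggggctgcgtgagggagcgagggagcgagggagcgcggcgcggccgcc
NFKB2, chr10:102394328-102394627: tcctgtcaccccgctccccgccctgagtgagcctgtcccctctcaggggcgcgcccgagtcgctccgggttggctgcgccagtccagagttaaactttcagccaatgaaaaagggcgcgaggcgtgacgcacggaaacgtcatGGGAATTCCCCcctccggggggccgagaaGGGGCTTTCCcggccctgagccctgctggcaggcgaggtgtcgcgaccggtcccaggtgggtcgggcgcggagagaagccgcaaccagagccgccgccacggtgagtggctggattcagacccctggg
BIRC3, chr11:102317234-102317533: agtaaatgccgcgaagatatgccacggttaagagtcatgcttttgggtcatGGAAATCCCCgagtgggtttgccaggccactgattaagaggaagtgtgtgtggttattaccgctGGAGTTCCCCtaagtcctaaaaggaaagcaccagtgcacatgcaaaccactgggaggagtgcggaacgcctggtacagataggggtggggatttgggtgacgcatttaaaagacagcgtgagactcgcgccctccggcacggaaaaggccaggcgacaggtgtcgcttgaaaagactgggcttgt
The TRAF3 window holds 1 match, which begins 33 bases before the gene start. The NFKB2 window printed holds matches at 3 positions, counted from its own RefSeq start, which lies further into the gene than 102394110, the start of the deposited interval. Those at 107 and 106 bases before that RefSeq start overlap each other, and the palindrome at 107 reads on both strands. The remaining one begins 78 bases before it. Another NFKB2 window, from 102393860 to 102394159 around the start of the deposited interval, held 0 matches. The BIRC3 window holds 2 matches, on the minus strand, 199 and 135 bases before the start. RefSeq windows were found for 9 of the 10 members, 14 windows in all, and 5 of the 14 held a match, the others being a further NFKB2 window and an NFKB1 window. Of all 35116 windows of the same length, 11.3% held at least 1 match. A match describes letters only and does not show that a factor binds there.

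The libraries were deep, and the silenced gene followed its label. Counts summed to between 63351653 and 72863628 per library. EIF4G2 lay between 178 and 200.1 CPM (CPM being counts scaled to library size with edgeR's TMM factors) in siEIF4G2 libraries, against 914 to 1104 CPM in siNC libraries, and was 5.41-fold lower (edgeR adjusted p = 0.000207; exact two-sided permutation p = 0.1, the smallest possible with 3 against 3). Of 10 hepatocyte markers, 7, among them ALB and AFP, had 0 counts in all 6 libraries, where a count of 0 allows up to 0.0403 to 0.0467 CPM for counting error only, while the epithelial keratins KRT8 and KRT18 averaged 1436 ± 109 and 639 ± 22.8 CPM in siEIF4G2, against 1582 ± 27.1 and 723 ± 10.4 CPM in siNC. The other 3 epithelial markers were nearly absent: EPCAM had 4 counts in siNC replicate 3 and 0 elsewhere, and KRT19 and CDH1 averaged 0.69 and 0.40 CPM in siEIF4G2, against 0.70 and 0.33 CPM in siNC. The leukocyte marker PTPRC, the B cell marker MS4A1 and the T cell markers CD3D, CD3E and CD2 were at 0 throughout. CD7, the other T cell marker, had 14, 11 and 16 counts in siEIF4G2, against 150, 163 and 110 counts in siNC, and the B cell markers CD79A and CD79B had 0 to 16 counts in siEIF4G2, against 0 to 23 counts in siNC. The summed level of 5 myeloid markers was 23.4 to 30.1 CPM in siEIF4G2, against 39.0 to 46.0 CPM in siNC, led by CD68 and CSF1R, both lower. The 4 endothelial markers summed to 3.33 to 4.12 CPM in siEIF4G2, against 10.1 to 10.9 CPM in siNC, and the 6 fibroblast markers to 622 to 660 CPM in siEIF4G2, against 534 to 561 CPM in siNC. Of the 5 fibroblast markers tested, COL3A1, DCN and LUM were higher, while COL1A1 (1.35-fold) and PDGFRB (2.29-fold) were lower. The part of these markers in the results on NF-kB genes was not tested. In bulk RNA, fewer cells of a type and less RNA per cell cannot be told apart.

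Of the 10 members, all of which passed the filter on low values (3 or more libraries at 0.5 FPKM or above), 1 was higher and 3 were lower in siEIF4G2 at an edgeR adjusted p of 0.05, and 6 did not pass. Over all 13748 genes tested, 15.9% were called higher and 17.6% lower, 33.4% in all. The gene set was proposed with results of this same contrast known, TRAF3, NFKB2 and RELB among them, so the adjusted p-values quoted for members are entries of the fit across all genes, given as a description, and support nothing. The median log2 fold change was -0.16 over the members and 0.01 over all genes tested. With DESeq2 on the same counts, 2 members were called higher and 4 lower, MAP3K14 and BIRC2 being the additions, against 18.7% and 20.2% of genes.

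**Figure D1:**
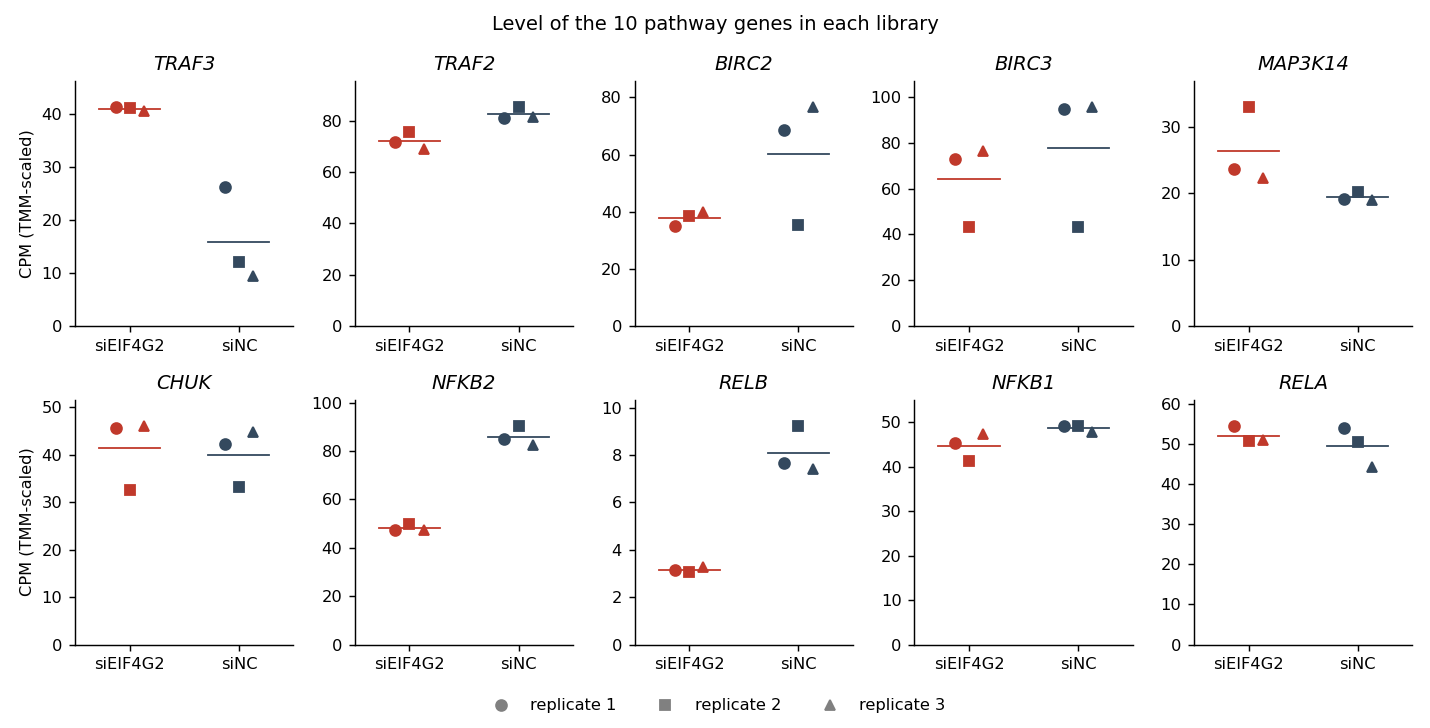
Level of each of the 10 genes in CPM (y axis, from 0) in siEIF4G2 and siNC libraries (x axis), with 1 point per library, the marker shape giving the replicate number and the line the group mean. TRAF3 lies at 40.5 to 41.3 CPM in siEIF4G2 and at 9.35 to 26.3 CPM in siNC, and BIRC3 and CHUK are lowest in replicate 2 of both groups.

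TRAF3 (ENSG00000131323) lies on chromosome 14 from 102777449 to 102911500, plus strand, in GRCh38 coordinates. In siEIF4G2 it had 41.3 CPM in replicate 1, 41.1 in replicate 2 and 40.5 in replicate 3. In siNC it had 26.3 CPM in replicate 1, 12.0 in replicate 2 and 9.35 in replicate 3. These levels rest on 3069, 2700 and 2602 counts in siEIF4G2 and on 1799, 805 and 658 counts in siNC. The groups did not overlap. The siEIF4G2 libraries were nearly equal, while siNC replicate 1 was 2.81 times siNC replicate 3. The deposited counts are taken here to be estimates, and the reads were not analysed. How far such differences between replicates, here and for BIRC2, BIRC3 and REL, depend on the estimation was not tested. The means were 41.0 ± 0.40 CPM in siEIF4G2, against 15.9 ± 9.10 CPM in siNC (SD, n = 3 each), a log2 difference of 1.37 (2.58-fold higher; SE 0.38; edgeR adjusted p = 0.0367).

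The spread of TRAF3 between libraries also differed between the groups. The SD of its log2(CPM + 0.5) was 0.014 in siEIF4G2, and 98.3% of tested genes had an SD at least as large there, against 0.75 in siNC, where 2.33% did. Without siNC replicate 1 the log2 fold change was 1.94 (edgeR adjusted p = 0.00303), and without siNC replicate 3 it was 1.10 (adjusted p = 0.0671). The call was also lost without siNC replicate 2 (log2 fold change 1.20, adjusted p = 0.105) and without siEIF4G2 replicate 1, 2 or 3, where the log2 fold change stayed at 1.36 to 1.37 and the adjusted p was 0.0834, 0.0801 and 0.0835.

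**Figure D2:**
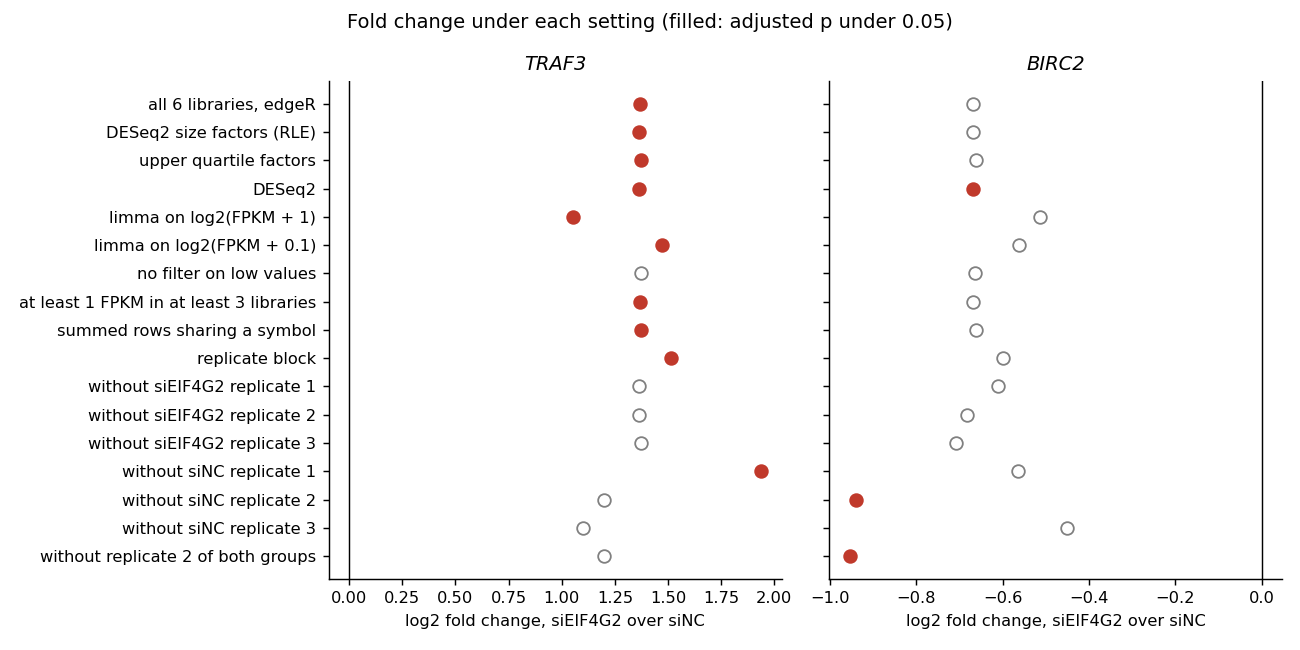
Log2 fold change, siEIF4G2 over siNC (x axis), of TRAF3 and BIRC2 under each setting of the analysis (y axis), with filled points where the adjusted p was under 0.05. TRAF3 stays between 1.05 and 1.94. BIRC2 lies between -0.95 and -0.45, with -0.94 without siNC replicate 2 and -0.95 with replicate 2 left out of both groups, against -0.67 with all 6 libraries.

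TRAF3 shares its interval only with RNU6-1316P, a row listed at 0.0001 FPKM. The nearest tested genes on either side, looked up after the TRAF3 values were seen, lay slightly lower in siEIF4G2 and missed the threshold. RCOR1, 46888 bases before it, averaged 75.4 ± 1.68 CPM in siEIF4G2, against 82.1 ± 2.95 CPM in siNC (log2 fold change -0.12, edgeR adjusted p = 0.0974). CDC42BPB, 20880 bases after it, averaged 153 ± 0.87 CPM in siEIF4G2, against 169.5 ± 8.02 CPM in siNC (log2 fold change -0.14, adjusted p = 0.0586).

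A few genes elsewhere had a profile over the 6 libraries close to that of TRAF3. All tested genes were ranked by the root mean square difference of centred log2(CPM + 0.5). The closest was TOMM40L, related to the mitochondrial import pore protein TOMM40, with a difference of 0.28. It read 37.2, 34.1 and 40.1 CPM in siEIF4G2, against 32.5, 10.96 and 13.8 CPM in siNC, with siNC replicate 1 the highest control as for TRAF3. NRAV, a noncoding RNA, followed at 0.35, with 25.0, 23.8 and 24.0 CPM in siEIF4G2 and 24.6, 9.78 and 10.2 CPM in siNC. ACTL8 and UBAC2-AS1 followed at 0.35 and 0.36, and NUSAP1, a microtubule-binding protein of the mitotic spindle, at 0.37, with 235, 240.4 and 240.1 CPM in siEIF4G2 and 157, 99.8 and 112 CPM in siNC. ACTL8 read only 1.90, 2.07 and 2.04 CPM in siEIF4G2 and 0.41, 0.39 and 0.17 CPM in siNC. Its log2 fold change of 2.63 was larger than the 1.37 of TRAF3, and its closeness depends on the added 0.5 CPM. Of these 5, TOMM40L and NRAV missed the threshold (edgeR adjusted p = 0.119 and 0.191), and ACTL8, UBAC2-AS1 and NUSAP1 passed (0.0026, 0.0246 and 0.00755). Leaving out siNC replicate 1 brought in TOMM40L (log2 fold change 1.58, adjusted p = 0.00392) and NRAV (1.28, 0.00303). UBAC2-AS1 lost its call when siEIF4G2 replicate 1, siEIF4G2 replicate 2, siNC replicate 2 or siNC replicate 3 was absent (adjusted p = 0.051 to 0.0783). The likeness is a description over 6 libraries that share their 2-group layout. The 5 genes were picked from these same values for their likeness to TRAF3. Their calls and leave-out results follow in part from that choice and support nothing further.

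TRAF2, the adaptor that bridges TRAF3 to the cIAP ligases, was slightly lower. The gene (ENSG00000127191) lies on chromosome 9 from 136881912 to 136923881, plus strand. It read 71.9, 75.5 and 69.0 CPM in siEIF4G2, against 81.3, 85.3 and 81.7 CPM in siNC. The groups did not overlap, and the difference of 1.15-fold was small beside that of TRAF3 (log2 fold change -0.20, SE 0.05; edgeR adjusted p = 0.0304). The call was lost without any library other than siEIF4G2 replicate 2 (adjusted p = 0.0672 to 0.0917), and with no filter on low values (0.0703). MIR4479, a row inside the TRAF2 interval on the same strand, had 3 to 13 counts per library. Per length, the ratio of TRAF3 to TRAF2 FPKM within a library was 0.25, 0.24 and 0.26 in siEIF4G2, against 0.14, 0.062 and 0.050 in siNC.

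BIRC2 and BIRC3, neighbours on chromosome 11 that are 7808 bases apart, did not pass, and siNC replicate 2 was far below the other siNC libraries for both. BIRC2 (ENSG00000110330, plus strand, 102347211 to 102378670) read 34.99, 38.6 and 39.9 CPM in siEIF4G2, against 68.5, 35.3 and 76.6 CPM in siNC. Replicate 2 was the low control, and it lay within the siEIF4G2 range. With all libraries the log2 fold change was -0.67 (SE 0.28; edgeR adjusted p = 0.114), and without siNC replicate 2 it was -0.94 (adjusted p = 0.00435). With any 1 library left out it ranged from -0.94 to -0.45 (edgeR adjusted p = 0.00435 to 0.284). With replicate 2 left out of both groups it was -0.95 (adjusted p = 0.0168).

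BIRC3 (ENSG00000023445, plus strand, 102317450 to 102339403) read 73.1, 43.3 and 76.5 CPM in siEIF4G2, against 94.9, 43.4 and 95.5 CPM in siNC. Replicate 2 was the lowest library in both groups, at almost the same level in each. The log2 fold change was -0.28 (SE 0.36; edgeR adjusted p = 0.591), and with replicate 2 left out of both groups, an alternative added after the data were seen, it was -0.35 (adjusted p = 0.0269). With any 1 library left out it ranged from -0.57 to -0.06 (edgeR adjusted p = 0.163 to 0.918). A row named AP000942 overlaps BIRC3 by 11137 bases on the opposite strand at 0.72 ± 0.091 CPM in siEIF4G2, against 1.11 ± 0.42 CPM in siNC, and the use of strand in counting is not stated, so reads of the 2 rows cannot be told apart. TMEM123, the next tested gene after BIRC2, was also lowest in replicate 2 of both groups, by less, with 297, 273 and 304 CPM in siEIF4G2 and 239, 229.8 and 242 CPM in siNC. The ratio of BIRC2 to BIRC3 FPKM was 0.79, 1.48 and 0.87 in siEIF4G2, against 1.20, 1.35 and 1.33 in siNC, and overlapped between groups.

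MAP3K14, which encodes NIK, stood higher in every siEIF4G2 library but missed the threshold. The gene (ENSG00000006062) lies on chromosome 17 from 45263119 to 45317020, minus strand. It read 23.7, 32.9 and 22.3 CPM in siEIF4G2, against 19.1, 20.1 and 18.9 CPM in siNC. Replicate 2 was the high siEIF4G2 library. The log2 fold change was 0.44 (SE 0.15; edgeR adjusted p = 0.0733), and without siEIF4G2 replicate 2 it was 0.25 (adjusted p = 0.0647). Among all tested genes, 50.6% had groups that did not overlap, as did 6 of the 10 members. MAP3K14-AS1 overlaps MAP3K14 by 6696 bases on the opposite strand at a mean of 0.22 FPKM, where MAP3K14 averaged 3.36 FPKM.

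CHUK, the kinase IKK-alpha that NIK activates, did not separate the groups. The gene (ENSG00000213341) lies on chromosome 10 from 100188300 to 100229596, minus strand. It read 45.6, 32.5 and 46.1 CPM in siEIF4G2, against 42.2, 33.1 and 44.7 CPM in siNC, with replicate 2 again the lowest library of each group. The log2 fold change was 0.05 (SE 0.17; edgeR adjusted p = 0.851). AL138921, a row on the opposite strand that overlaps CHUK by 712 bases, averaged 0.32 FPKM. ERLIN1, 2267 bases from CHUK, rose 1.69-fold (76.3 ± 0.90 CPM in siEIF4G2, against 45.0 ± 2.56 CPM in siNC, with adjusted p = 0.00053).

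**Figure D3:**
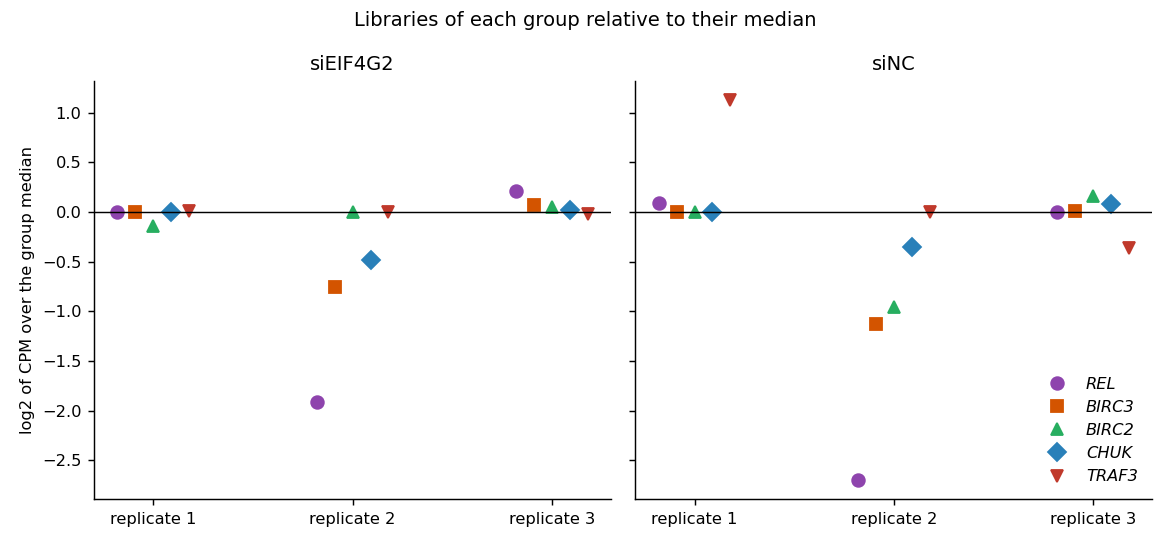
Log2 of each library's CPM over the median of its group (y axis) for REL, BIRC3, BIRC2, CHUK and TRAF3 in replicates 1, 2 and 3 (x axis) of siEIF4G2 and siNC. REL, BIRC3 and CHUK are low in replicate 2 of both groups, BIRC2 only in siNC, and TRAF3 departs in siNC replicate 1.

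The low replicate 2 extended to REL, the subunit c-Rel, which is outside the 10 genes and was singled out after its values were seen. REL read 12.97, 3.44 and 15.0 CPM in siEIF4G2, against 19.0, 2.75 and 17.8 CPM in siNC. Over all genes, 42 of the tested genes were at least 1.5-fold below both other libraries in replicate 2 of both groups, against 39 for replicate 1 and 46 for replicate 3. Taken alone, siEIF4G2 replicate 2 had the largest share of genes that far below the others of its group, 3.15%, and siNC replicate 2 the smallest of the 6 libraries, 2.31%. The 2 pairs with siEIF4G2 replicate 2 also had the largest chi-square per gene among same-group pairs, 84.7 and 79.0, beside 68.5 to 73.4 for the other pairs.

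NFKB2, which encodes p100 and its product p52, was lower in every siEIF4G2 library. The gene (ENSG00000077150) lies on chromosome 10 from 102394110 to 102402524, plus strand, and overlaps no other row. It read 47.2, 49.8 and 47.2 CPM in siEIF4G2, against 85.0, 90.4 and 82.5 CPM in siNC. Both groups were tight and far apart, with means of 48.1 ± 1.47 CPM in siEIF4G2, against 86.0 ± 4.06 CPM in siNC (SD, n = 3 each). The level was 1.79-fold lower (log2 fold change -0.84, SE 0.05; edgeR adjusted p = 0.000407), and with any 1 library left out the log2 fold change lay between -0.86 and -0.80. Its neighbours GBF1 and FBXL15 lay at -0.07 and 0.02 on the log2 scale, with edgeR adjusted p of 0.222 and 0.921.

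RELB, the partner of p52, had the largest fall among the 10 genes. The gene (ENSG00000104856) lies on chromosome 19 from 45001449 to 45038198, plus strand. It read 3.15, 3.06 and 3.28 CPM in siEIF4G2, against 7.67, 9.24 and 7.40 CPM in siNC, from 201 to 234 counts in siEIF4G2, against 521 to 618 counts in siNC. RELB was the least abundant member in siEIF4G2, and its groups lay well apart. The level was 2.56-fold lower (log2 fold change -1.36, SE 0.12; edgeR adjusted p = 0.00093), with a range of -1.41 to -1.25 when any 1 library was left out. CLPTM1, 8108 bases before RELB, was also lower (log2 fold change -0.91, adjusted p = 0.00126), while CLASRP, 847 bases after it, had a log2 fold change of 0.34 (adjusted p = 0.0801).

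NFKB1 and RELA, the canonical partners p105/p50 and p65, did not pass. NFKB1 (ENSG00000109320, chromosome 4, 102501331 to 102617302, plus strand) read 45.3, 41.2 and 47.3 CPM in siEIF4G2, against 49.2, 49.2 and 47.8 CPM in siNC. All siEIF4G2 values lay below all siNC values, by little (log2 fold change -0.13, SE 0.06; edgeR adjusted p = 0.18). RELA (ENSG00000173039, chromosome 11, 65653597 to 65663090, minus strand) read 54.5, 50.7 and 50.9 CPM in siEIF4G2, against 54.0, 50.5 and 44.1 CPM in siNC, and its groups overlapped (log2 fold change 0.07, SE 0.09; edgeR adjusted p = 0.566).

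**Figure D4:**
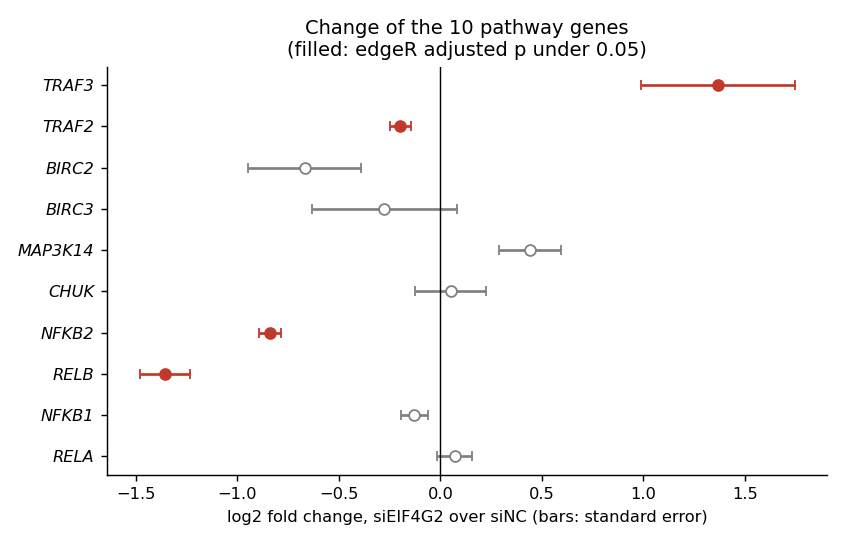
Log2 fold change, siEIF4G2 over siNC, of the 10 genes (x axis) with standard errors as bars, and filled points where the edgeR adjusted p was under 0.05. TRAF3 lies at 1.37 with the widest bar, RELB at -1.36, NFKB2 at -0.84 and TRAF2 at -0.20.

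Set against each other within a library, the noncanonical subunits were lower relative to the canonical ones. The ratio of NFKB2 to NFKB1 FPKM was 1.41, 1.63 and 1.35 in siEIF4G2, against 2.33, 2.48 and 2.33 in siNC. The ratio of RELB to RELA FPKM was 0.10, 0.11 and 0.12 in siEIF4G2, against 0.26, 0.33 and 0.30 in siNC. Neither ratio overlapped between groups. The ratios restate the falls of NFKB2 and RELB, known when the set was proposed, beside NFKB1 and RELA, and are no separate evidence. Among single tested genes, 50.6% had groups that did not overlap.

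Levels per length, in FPKM (fragments scaled to gene length and library size), put TRAF2 first in both groups, at 16.6 ± 0.53 in siEIF4G2 and 18.7 ± 0.53 in siNC. NFKB2 came next in both, at 8.59 ± 0.13 in siEIF4G2 and 15.1 ± 0.72 in siNC. In siNC its range overlapped that of no other member, and in siEIF4G2 it overlapped that of BIRC3 (4.77 to 8.65), which was above NFKB2 in replicate 3. In siEIF4G2 the order went on with RELA, BIRC3, BIRC2, NFKB1, CHUK, TRAF3, MAP3K14 and RELB. In siNC it went on with BIRC2, BIRC3, RELA, NFKB1, CHUK, MAP3K14, RELB and TRAF3. Library ranges were then compared only between genes next to each other in the order. In siEIF4G2 the ranges of RELA and BIRC3, BIRC3 and BIRC2, NFKB1 and CHUK, CHUK and TRAF3, and TRAF3 and MAP3K14 overlapped. In siNC those of BIRC2 and BIRC3, BIRC3 and RELA, and RELB and TRAF3 overlapped. Genes further apart in the order could overlap too. In siNC the range of BIRC3 (4.78 to 10.5 FPKM) also overlapped those of NFKB1 (6.24 to 6.41) and CHUK (3.97 to 5.38). TRAF3 stood last of the 10 in siNC, at 1.58 ± 0.90 FPKM and level with RELB within the spread, and eighth in siEIF4G2, at 4.17 ± 0.066 FPKM.

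The rest of the pathway was read from 7 lists of other genes. Together they held 108 genes, of which 79 were tested, and 9 of these rose (11.4%, beside 15.9% of all genes tested), 31 fell (39.2%, beside 17.6%) and 39 did not pass. Their median log2 fold change was -0.24. The lists describe the surroundings of the members in the same contrast and were drawn up with earlier results known.

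Of 14 receptors and ligands 4 were tested, and edgeR called 0 of them, as did DESeq2 and an unadjusted p of 0.05. Over all genes tested, edgeR called 33.4%. LTBR, the lymphotoxin beta receptor, averaged 71.5 ± 4.0 CPM in siEIF4G2, against 79.9 ± 14.0 CPM in siNC (log2 fold change -0.16, edgeR adjusted p = 0.379). TNFRSF12A, the receptor for TWEAK, averaged 71.7 ± 2.42 CPM in siEIF4G2, against 76.7 ± 2.44 CPM in siNC (log2 fold change -0.10, adjusted p = 0.184). TNFRSF11A (RANK) and TNFSF12 (TWEAK) were low, at 6.17 ± 1.79 and 4.17 ± 1.65 CPM in siEIF4G2, against 5.06 ± 1.55 and 4.86 ± 2.43 CPM in siNC. CD40 and its ligand CD40LG were at 0 counts in all 6 libraries.

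Of 6 tested genes in the list of other TRAF proteins, 1 rose and 1 fell (16.7% each, beside 15.9% and 17.6% of all genes tested). TRAF7 rose 1.22-fold (144 ± 5.81 CPM in siEIF4G2, against 118 ± 3.79 CPM in siNC, with edgeR adjusted p = 0.0075), and TRAF5, which can signal alongside TRAF2, fell 1.18-fold (adjusted p = 0.0334), a call lost without any library other than siEIF4G2 replicate 3. It was lost too when low genes were kept (0.0622) or limma was run on log2 FPKM (0.0837 and 0.0817 with the larger and smaller pseudocount). TRAIP and TRAF6 lay at 0.36 and 0.21 on the log2 scale (adjusted p = 0.0593 and 0.121).

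Among 20 tested regulators of NIK, TRAF3 and p100 processing, 6 rose, 3 fell and 11 did not pass. The rises were 30% of the list and the falls 15%, beside 15.9% and 17.6% of all genes tested. Of the 20, 8 had a positive and 12 a negative log2 fold change, with a median of -0.08. PELI1, a ubiquitin ligase reported to act on NIK, rose 1.58-fold, to 10.7 ± 1.0 CPM in siEIF4G2, against 6.76 ± 0.60 CPM in siNC (edgeR adjusted p = 0.00802). ZFP91, a ligase reported to stabilise NIK, rose 1.23-fold (adjusted p = 0.00804), and CUL1, the scaffold of the ligase that marks p100 for processing, rose 1.21-fold (adjusted p = 0.00861). NLRX1, a mitochondrial regulator of innate signalling, fell 1.36-fold (adjusted p = 0.00413). With replicate 2 left out of both groups, 3 rose and 1 fell.

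Of 18 tested genes for the canonical kinase complex and its adaptors, 7 fell, 2 rose and 9 did not pass (4 fell and 1 rose with replicate 2 left out of both groups), with a median log2 fold change of -0.34. The falls were 38.9% of the list and the rises 11.1%, beside 17.6% and 15.9% of all genes tested. RBCK1 (HOIL-1), part of the linear ubiquitin ligase, fell 1.62-fold, and RIPK1, the kinase scaffold of TNF receptor complexes, fell 1.40-fold (edgeR adjusted p = 0.00136 and 0.00161). CYLD, a deubiquitinase that restrains NF-kB, fell 1.73-fold (25.7 ± 1.35 CPM in siEIF4G2, against 44.6 ± 5.76 CPM in siNC, with adjusted p = 0.00324). IRAK1, a kinase below interleukin-1 and Toll-like receptors, rose 1.51-fold (254.6 ± 11.7 CPM in siEIF4G2, against 168 ± 3.32 CPM in siNC, with adjusted p = 0.000632). Of 7 tested IkB proteins and REL, 2 fell (28.6%, beside 17.6% of all genes tested). For this list edgeR called 0 rises, also 0 with DESeq2 and at an unadjusted p of 0.05. NFKBIA, the inhibitor IkB-alpha and itself an NF-kB target, fell 1.28-fold (54.8 ± 1.21 CPM in siEIF4G2, against 70.3 ± 2.20 CPM in siNC, with adjusted p = 0.00302), and NFKBIE fell 1.59-fold (adjusted p = 0.0104). NFKBID and BCL3 lay at -0.30 and -0.17 on the log2 scale (adjusted p = 0.186 and 0.395).

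**Figure D5:**
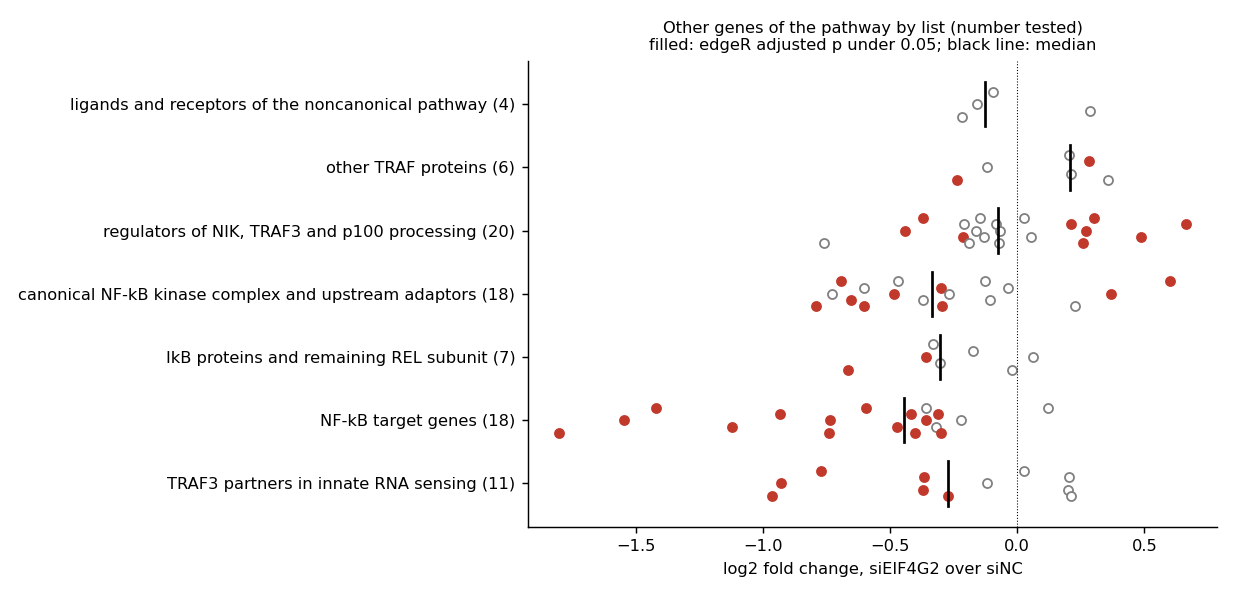
Log2 fold change, siEIF4G2 over siNC (x axis), of every tested gene in 7 lists of other pathway genes (y axis, with the number tested), filled where the edgeR adjusted p was under 0.05, and with a black line at the list median. The NF-kB target genes have 14 filled points, all below 0, and the receptors and ligands have no filled point.

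Of 18 tested NF-kB target genes 14 fell, which is 77.8% beside 17.6% of all genes tested, and edgeR called 0 rises, also 0 with DESeq2 and at an unadjusted p of 0.05. The median log2 fold change was -0.45. Falls of CCL5 and IL32 in this contrast were known when the list was drawn up, so the count is not independent evidence of its direction. CCL5, a chemokine, read 35.7, 22.0 and 23.3 CPM in siEIF4G2, against 91.6, 96.7 and 94.7 CPM in siNC, 3.49-fold lower (edgeR adjusted p = 0.00149). IL32, a cytokine, was 2.92-fold lower (3.12 ± 0.35 CPM in siEIF4G2, against 9.12 ± 1.06 CPM in siNC, with adjusted p = 0.00093), BTG2, an antiproliferative gene, 2.18-fold lower (adjusted p = 0.000407) and CSF1, a macrophage growth factor, 1.67-fold lower (adjusted p = 0.000723). Another 17 listed targets were not tested, 7 of them at 0 counts in all 6 libraries.

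TRAF3 also serves in RNA sensing, where it links MAVS and TICAM1 to TBK1 and IKBKE. Of 11 tested genes listed for that role, 6 fell, which is 54.5% beside 17.6% of all genes tested (3 fell with replicate 2 left out of both groups), and edgeR called 0 rises, also 0 with DESeq2 and at an unadjusted p of 0.05, and 1 without siNC replicate 3. The sensors DDX58 (RIG-I) and IFIH1 (MDA5) averaged 65.1 ± 4.15 and 71.9 ± 0.25 CPM in siEIF4G2, against 127 ± 9.62 and 123 ± 8.57 CPM in siNC, and were 1.95-fold and 1.71-fold lower (edgeR adjusted p = 0.000629 and 0.000602). IRF7, an interferon transcription factor, was 1.91-fold lower (adjusted p = 0.000563), and the kinase IKBKE, which is also in the list of regulators above, 1.29-fold lower (adjusted p = 0.00917).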

How the data were processed

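Messenger RNA was measured in 6 libraries, 3 siEIF4G2 and 3 siNC, grouped and numbered by sample title. The authors deposited 1 table with an estimated count and an FPKM value per gene and library, per the file headers. HISAT2 2.0 and StringTie 1.3.0 are listed, without roles, in the submitters' processing notes. No source used here gives the build, the annotation or the use of strand. The deposited counts are whole numbers taken as rounded estimates, since only 23.3% of 43 low FPKM values, once rescaled, came within 0.1 of a whole read. Of 58394 identifiers shared with GENCODE 29 (GRCh38), 99.9% had an overlapping interval.

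Of rows sharing a symbol the one with the highest mean FPKM was kept, and the 13748 genes that reached 0.5 FPKM in 3 or more libraries were tested. The test was edgeR 4.0.16 (R 4.3.3), quasi-likelihood, TMM scaling, group only, two-sided, with Benjamini-Hochberg adjustment over all tested genes and a threshold of 0.05. The standard error was taken as |log2 fold change| / sqrt(F). The test was checked on simulated counts for these 13748 genes, where 92% of 4-fold, 68% of 2-fold, 18% of 1.5-fold and 4% of 1.3-fold changes were called, and 5 of 96 calls were of unchanged genes. Few genes were changed in the simulation, with 96 calls there against 4597 in the real contrast. The adjustment was therefore stricter there, and the shares do not give the recovery in the real contrast. Limits on counts of 0 cover counting error only, at 3 counts. Same-group libraries differed by more than sampling noise (chi-square per gene at least 68.5). Alternatives were DESeq2 1.42.0, limma 3.58.1 on log2(FPKM + 1) and log2(FPKM + 0.1), other scalings and filters, summed rows, a replicate block and leaving out libraries. Python 3.11.15 was used for tables and matplotlib for figures.

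Members and lists were chosen with earlier results of these data known. Named genes were the members, EIF4G2, genes overlapping a called member, up to 4 genes with the smallest p of each list, and the 5 genes closest to TRAF3 in profile, leaving out clone, locus and pseudogene names. Neighbouring genes, REL, XIAP and the markers named were chosen after values were seen. RIGI, TMEM173 and DUBA are older or newer symbols of DDX58, STING1 and OTUD5 and were counted once. Promoter windows come from RefSeq.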

Additional observations from a re-analysis of the deposited data

How the results depend on the processing

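Directions of the 45 named fold changes held, wherever the gene was tested, under both other scalings, the other filters, limma, DESeq2, summed rows and the replicate block. TRAF3 lost its call with no filter on low values (log2 fold change 1.37, adjusted p = 0.0559), which left 0 members higher (2 with DESeq2) and, with TRAF2 lost, 2 lower. With replicate 2 left out of both groups, an alternative added after the data were seen, TRAF3 stood at 1.20 (adjusted p = 0.183), 0 members were higher and 4 lower, 4 and 19 list genes were higher and lower, 1218 and 1521 genes in all were higher and lower, and TNFSF12 turned to 0.22; fewer libraries were tested there.

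With any 1 library left out, members called higher ranged from 0 to 1 and lower from 2 to 3, list genes higher from 6 to 7 and lower from 26 to 30, and all genes higher from 1567 to 1891 and lower from 1785 to 2243. Log2 fold changes ranged from 1.10 to 1.94 for TRAF3, -2.50 to -2.36 for EIF4G2, -0.069 to 0.20 for CHUK, -0.000908 to 0.14 for RELA and -0.57 to 0.085 for TNFSF12, the last 3 with a change of sign and none called.

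No pairing by replicate number was seen across all tested genes. Deviations from the group means correlated at 0.00114, 0.0317 and 0.0498 for replicates 1, 2 and 3. For unlike replicate numbers they correlated at -0.0755 to 0.0433. Whether replicate numbers pair the libraries for some genes only was not tested. The replicate block gave 1726 genes higher and 2010 lower, against 2182 and 2415 without it, and a TRAF3 log2 fold change of 1.51 (adjusted p = 0.0418), and changed no call among the named genes.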

Other observations

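XIAP, a relative of BIRC2 and BIRC3 that inhibits caspases and is listed among the regulators above, varied more between libraries than either. It read 7.92, 5.48 and 22.7 CPM in siEIF4G2, against 5.90, 30.3 and 25.0 CPM in siNC, so that both groups held low and high libraries (log2 fold change -0.76, edgeR adjusted p = 0.475). In all, 1.51% of tested genes in siEIF4G2 and 0.727% in siNC had an SD of log2(CPM + 0.5) at least as large. The low libraries of XIAP were siEIF4G2 replicates 1 and 2 and siNC replicate 1, whereas REL and BIRC3 were low in replicate 2 of both groups.

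NFKB1 had a neighbour that fell. MANBA, the lysosomal enzyme beta-mannosidase, 13468 bases after NFKB1, averaged 78.9 ± 2.26 CPM in siEIF4G2, against 136 ± 21.0 CPM in siNC, 1.72-fold lower (edgeR adjusted p = 0.00399). FMNL1, a formin 15801 bases from MAP3K14, was 1.28-fold lower (adjusted p = 0.00895), and EDF1, a transcriptional coactivator 15604 bases from TRAF2, 1.14-fold lower (adjusted p = 0.0263). The neighbours were looked up after the values of the members were seen, and those named here were picked because they were called lower. Other neighbours were called higher (TMEM123, ERLIN1) or not called (such as GBF1, FBXL15 and CLASRP). Over all genes tested, 33.4% were called.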
